A study of Mus musculus with 16 samples.

Results

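The transcriptomes of reprogramming fibroblasts depleted of *Brca1* or of its partner *Bard1* were compared directly at day 3. The comparison rests on 4 of the 16 RNA-seq libraries of the series, 2 of si*Brca1* and 2 of si*Bard1* cells. Genes were kept when their mean log2 CPM (read counts scaled to the size of each library, CPM, on a log2 scale) over the 16 libraries was at least 0, which left 14028 of 18990 genes. All cells were wild-type BL6 mouse embryonic fibroblasts (MEFs), a primary culture rather than a line, reprogrammed at passage 2. They carried a doxycycline-inducible lentiviral cassette for Oct4, Sox2, Klf4 and c-Myc (tet-STEMCCA) and a lentivirus for the rtTA activator, both at an MOI of 1. They received 40 nM of pooled siRNAs against *Brca1*, *Bard1* or *Wdr5*, or the non-targeting (nt) control. A day after transfection they were re-plated and induced in medium with serum, LIF, doxycycline at 2 µg/mL, chiron at 3 µM, the TGFb inhibitor Alk5i at 0.25 µM and ascorbic acid at 50 µg/mL. Each group had 2 libraries at day 3 and 2 at day 6. The control libraries therefore share the cassette, the medium and a transfection with both knockdowns. The methods describe the libraries of a group as independent replicates, and each is a whole population in which knockdown was not measured cell by cell.

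BRCA1 and BARD1 are RING-domain proteins that form a heterodimer, an E3 ubiquitin ligase that acts on histone H2A and promotes repair of DNA breaks by homologous recombination. Each partner stabilises the other as a protein, so the knockdowns deplete subunits of the same complex. BRCA1 also takes part in other complexes with partners such as BRIP1 and PALB2, and both genes are transcribed mostly in cycling cells. Early reprogramming requires MEFs to proliferate and to silence mesenchymal genes before epithelial genes come up, the mesenchymal-to-epithelial transition (MET). The direct comparison asks where depletion of the 2 subunits gives different transcriptomes.

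Each pool held 3 siRNAs, of which 2 sequences per gene are shown because they are part of the perturbation of each group. The third was not analysed here, so the targets and seeds below cover only part of each pool. The antisense (guide) strands are printed 5′ to 3′ with the seed, bases 2 to 8, in capitals.
Brca1 siRNA 1: aCUAAACCuugugcuuccctg
Brca1 siRNA 2: aAGGACAUugugaaggccctt
Bard1 siRNA 1: uUGUCGGUuuaucuugaggtc
Bard1 siRNA 2: aGAAGAUGugcucacaucctc
The 19-base targets matched 1 gene each in GENCODE vM21 transcripts, *Brca1* or *Bard1*, and all 19 bases lay in coding sequence. In mm10, the targets in *Brca1* are at chr11:101534000-101534018 (exon 5 of 23) and chr11:101535553-101535571 (exon 4), on the minus strand. Those in *Bard1* are at chr1:71088167-71088185 (exon 3 of 11) and chr1:71089475-71089493 (exon 2), also on the minus strand. The 4 seeds differ from each other. A match to the seed of Brca1 siRNA 2 occurs 1 time in the 3′ UTR of *Bard1* and 1 time in that of *Wdr5*, whereas neither *Bard1* seed has a match in the 3′ UTR of *Brca1*. Over all tested genes with a 3′ UTR, the 1716 genes with a match to the seed of Brca1 siRNA 2 had a median difference (si*Brca1* minus si*Bard1*) of 0.06 on the log2 scale, and the 932 with a match to Brca1 siRNA 1 one of 0.04. The medians were 0.06 for the 1853 genes matching Bard1 siRNA 2 and 0.09 for the 203 matching Bard1 siRNA 1. The median over all 12565 genes with a 3′ UTR was 0.05, so none of the 4 groups lay more than 0.04 from it.

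The targeted mRNAs were examined first. *Brca1* (ENSMUSG00000017146, chr11:101488764-101551955) was at 82.4 and 78.0 CPM in the nt libraries, at 57.8 and 66.1 CPM in si*Bard1* and at 37.5 and 19.4 CPM in si*Brca1*. It was lowest in both si*Brca1* libraries, and the 2 knockdowns did not overlap. The level in si*Brca1* was 1.20 lower on the log2 scale than in si*Bard1* (SE 0.22, adjusted p = 0.00447) and 1.57 lower than in nt (adjusted p = 7.9e-05). Against nt, *Brca1* differed by −0.38 in si*Bard1* and did not pass the test (adjusted p = 0.26).
*Bard1* (chr1:71027498-71103146) was at 30.5 and 29.1 CPM in nt, at 18.0 and 20.8 CPM in si*Bard1* and at 14.4 and 9.07 CPM in si*Brca1*. It was thus lower than nt in the cells that received its own siRNAs, by −0.62 (SE 0.19, adjusted p = 0.042), but lower still in the cells that received *Brca1* siRNAs. The direct difference in *Bard1* was −0.76 (SE 0.19, adjusted p = 0.0136), and the difference between si*Brca1* and nt was −1.38 (adjusted p = 7.3e-05). Of the 2 mRNAs, then, both were lower in si*Brca1* than in si*Bard1*, and the *Bard1* mRNA does not mark the si*Bard1* group.
*Wdr5*, which encodes a subunit of H3K4 methyltransferase complexes and was the third target of the series, was at 96.6 and 91.9 CPM in si*Bard1* and at 74.3 and 68.9 CPM in si*Brca1*. The groups did not overlap, and the difference was −0.40 (SE 0.10, adjusted p = 0.0161). Without si*Brca1* replicate 2, neither *Bard1* nor *Wdr5* passed the test.

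**Figure D1:**
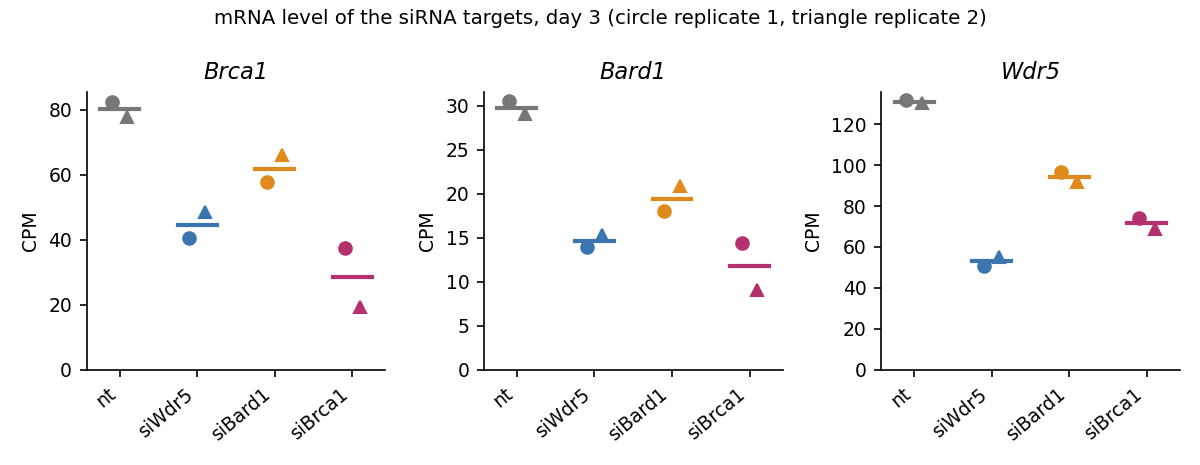
Level of *Brca1*, *Bard1* and *Wdr5* mRNA in CPM (vertical axes, each from 0) in the 8 day 3 libraries, by group, with circles for replicate 1, triangles for replicate 2 and a bar at the mean of each group. In both si*Brca1* libraries *Brca1* is lower than in all others, *Bard1* is lowest in si*Brca1* replicate 2 (9.07 CPM) with si*Wdr5* at 13.9 and 15.3 CPM close to si*Brca1* replicate 1, and *Bard1* is at 18.0 and 20.8 CPM in the si*Bard1* libraries.

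The 8 day 3 libraries held between 14198918 and 17393793 reads in the table, and 3 reads corresponded to between 0.156 and 0.221 CPM in the 4 compared libraries. The si*Brca1* libraries were the least alike pair of day 3. The mean absolute log2 difference over the tested genes was 0.296 between them, against 0.173 to 0.237 within the other groups. Replicate 1 of si*Brca1* lay closer to replicate 1 of si*Bard1* (0.265) than to its own replicate 2. Along the first principal component of the day 3 libraries, which held 51.1% of the variance, the nt libraries lay at −45.7 and −40.0, si*Bard1* at −2.0 and −7.0, si*Wdr5* at 8.6 and 10.0, and si*Brca1* at 22.8 and 53.3. All 11 fibroblast markers were present. Residual ribosomal RNA differed between libraries of a group, with the rRNA gene CT010467.1 at 5.39 and 98.5 CPM in si*Bard1*, 458 and 87.1 CPM in si*Brca1*, and 3248 and 1385 CPM in nt. The part of ribosomal RNA in the results was not tested.

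Of the 14028 genes, 422 were called, meaning an adjusted p below 0.05 and a difference above 1 on the log2 scale (3.01%). In si*Brca1*, 205 were higher (1.46%) and 217 were lower (1.55%) than in si*Bard1*. The largest positive differences were those of *Trib3* and *Aldh1l2* of the ATF4 response, the fatty acid transporter *Cd36*, *Lyz2* and *Hrk*. The genes called lower included 21 of mitosis and 5 of DNA replication, and 32 non-coding genes. By adjusted p alone, 3008 genes differed (21.4%), 1840 of them higher (13.1%) and 1168 lower (8.33%). In a fit of the 4 compared libraries alone, 959 genes passed by adjusted p. Both si*Brca1* libraries lay above both si*Bard1* libraries for 33.9% of all genes and below both for 25.7%, and the libraries did not overlap for 421 of the 422 called genes. The median difference over all genes was 0.035.

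**Figure D2:**
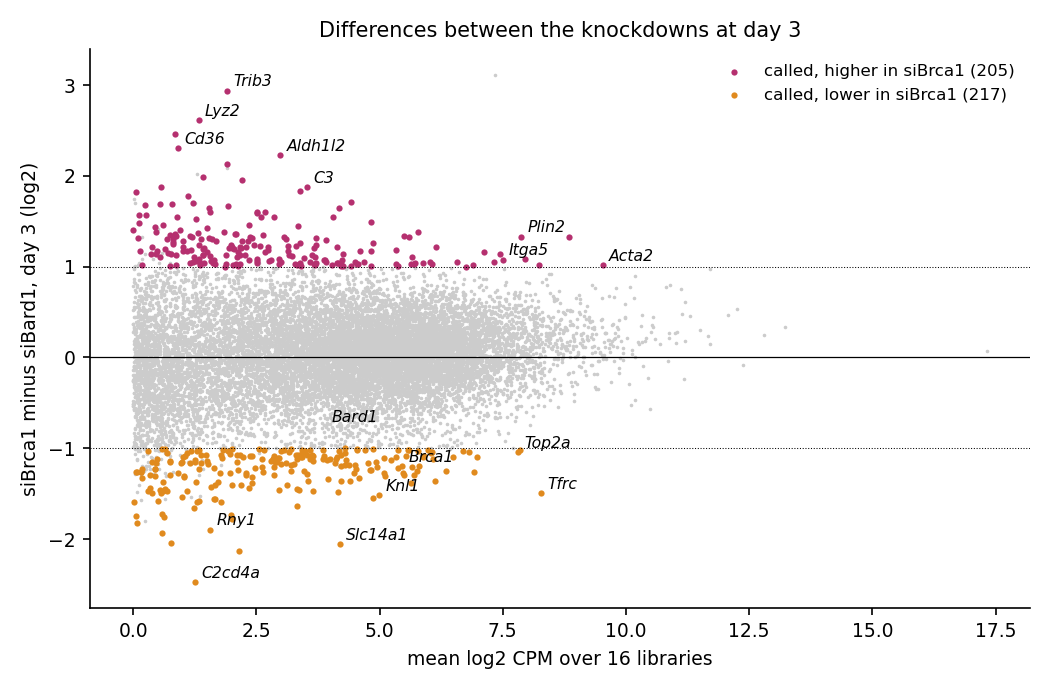
Difference between si*Brca1* and si*Bard1* at day 3 (vertical axis, log2) against the mean log2 CPM over 16 libraries (horizontal axis) for 14028 genes, with the 205 genes called higher and the 217 called lower in colour and dotted lines at a difference of 1 and −1. *Trib3* (2.94) is the highest called gene and *C2cd4a* (−2.48) the lowest, while *Tfrc*, *Top2a* and *Acta2* are among the most highly expressed genes called.

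The size of these differences depended on the library. Among the genes called higher, the median difference from the si*Bard1* mean was 0.88 in si*Brca1* replicate 1 and 1.47 in replicate 2. Among those called lower it was −0.85 and −1.54. Replicate 2 lay further from si*Bard1* than replicate 1 for 374 of the 422 genes (88.6%), compared with 68.1% of all tested genes. Its *Brca1* mRNA was also the lower of the pair (19.4 against 37.5 CPM), and the part of knockdown strength in this gradation was not tested. Without si*Brca1* replicate 2, 155 genes were called, and without replicate 1, 1111. Without si*Bard1* replicate 2, none was called in limma's test (smallest adjusted p = 0.0723, with 3323 genes at an unadjusted p under 0.05), whereas without si*Bard1* replicate 1 there were 490. Without si*Bard1* replicate 2, the median differences of the genes called higher and lower in the full fit were 1.08 and −1.16. The cause of this loss of calls was not tested. Over these 4 fits the medians lay between 0.88 and 1.47 for the 205 genes and between −1.54 and −0.85 for the 217. Every call between the knockdowns at day 3 given below is therefore lost without si*Bard1* replicate 2. The signs could not turn for the 421 genes whose libraries did not overlap.

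The knockdowns were also set against the common control at day 3, which both of these comparisons share. si*Brca1* differed from nt in 1878 called genes (13.4%) and si*Bard1* in 314 (2.24%). The 205 genes called higher in si*Brca1* had a median difference from nt of 1.54 in si*Brca1* and 0.27 in si*Bard1*. For the 217 called lower the medians were −1.43 and −0.24. No gene called in the direct comparison was called against nt in both knockdowns in opposite directions.

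Of 51 mitosis and G2/M genes tested, 21 were called lower in si*Brca1* and none higher. By adjusted p alone 48 were lower and 1 higher, the securin gene *Pttg1* (0.73, adjusted p = 0.0287). The median difference was −0.93. Relative to the mean of nt, the median of the list was −0.34 and −0.28 in the si*Bard1* libraries and −0.85 and −1.67 in the si*Brca1* libraries.
*Knl1*, the scaffold that carries checkpoint proteins at the kinetochore (chr2:119047119-119105501), was at 51.0 and 45.8 CPM in nt, 38.9 and 50.1 CPM in si*Bard1* and 20.8 and 11.5 CPM in si*Brca1*. The si*Bard1* libraries lay within or near the range of nt, and both si*Brca1* libraries lay below it. The difference between the knockdowns was −1.52 (SE 0.21, adjusted p = 0.00373).
*Kif11*, the kinesin that pushes spindle poles apart, was at 77.7 and 94.9 CPM in si*Bard1* and at 49.7 and 22.5 CPM in si*Brca1*. *Ttk*, the kinase that starts the spindle checkpoint, was at 21.1 and 25.1 CPM and at 12.3 and 6.54 CPM, respectively. Both were lower by 1.36 on the log2 scale, and neither overlapped between the groups. *Cenpk*, an inner kinetochore gene, had fewer reads, at 3.36 and 4.81 CPM against 2.05 and 1.12 CPM (difference −1.41, SE 0.31, adjusted p = 0.00808).
Proliferation markers with many reads showed the same order of libraries. The topoisomerase gene *Top2a* was at 281 and 317 CPM in si*Bard1* and at 198 and 107 CPM in si*Brca1* (−1.04, adjusted p = 0.00502). *Mki67*, which encodes the Ki-67 antigen, was at 355 and 389 CPM and at 252 and 133 CPM (−1.02, adjusted p = 0.00561). In each of these genes si*Brca1* replicate 1 lay between the si*Bard1* libraries and si*Brca1* replicate 2, and all 51 genes of the list were further from si*Bard1* in replicate 2. Without that library 1 gene of the list was called lower, 31 passed by adjusted p and the median was −0.54. The list had 44 called without si*Brca1* replicate 1, and 27 passing without si*Bard1* replicate 1.

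Many genes of late S phase and mitosis carry a CHR element (cell cycle genes homology region) next to CCAAT boxes, through which the MuvB complexes hold them silent outside the cycle. Promoter windows of RefSeq (GRCm38.p6), from 250 bases before to 50 after each start site, were found for 10195 of the tested genes and were searched on both strands. The CHR letters TTTGAA or TTCGAA occurred in 16.2% of these genes, in 35.0% of the 143 matched genes called lower and in 15.6% of the 147 called higher. In the mitosis list the share was 73.8% of 42. CCAAT occurred in 43.0% of all, in 51.7% of the genes called lower, in 38.8% of those called higher and in 69.0% of the mitosis list. Lists that were higher in si*Brca1* held it as well, in 89.5% of cholesterol, 72.0% of ATF4 and 58.1% of contractile genes. The E2F letters (TTTCCCGC, TTTCGCGC, TTTGCCGC or TTTGGCGC) occurred in 4.65% of all, in 10.5% of the genes called lower, in 1.36% of those called higher and in 40.0% of 40 replication genes. These are matches of letters, and binding was not measured.
The promoters of *Kif11*, *Top2a* and *Gins3* are shown because they hold these letters close to the start site. CCAAT and CHR are in capitals for the first pair, and CCAAT and E2F for *Gins3*; other matches are not marked.
Kif11 promoter, chr19:37376132-37376431, plus strand: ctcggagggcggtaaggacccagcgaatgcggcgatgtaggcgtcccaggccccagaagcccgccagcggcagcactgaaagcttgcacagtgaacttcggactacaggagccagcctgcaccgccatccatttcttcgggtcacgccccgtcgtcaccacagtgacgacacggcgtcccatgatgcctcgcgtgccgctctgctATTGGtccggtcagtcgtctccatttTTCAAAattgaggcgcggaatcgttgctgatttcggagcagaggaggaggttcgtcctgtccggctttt
Top2a promoter, chr11:99024140-99024439, minus strand: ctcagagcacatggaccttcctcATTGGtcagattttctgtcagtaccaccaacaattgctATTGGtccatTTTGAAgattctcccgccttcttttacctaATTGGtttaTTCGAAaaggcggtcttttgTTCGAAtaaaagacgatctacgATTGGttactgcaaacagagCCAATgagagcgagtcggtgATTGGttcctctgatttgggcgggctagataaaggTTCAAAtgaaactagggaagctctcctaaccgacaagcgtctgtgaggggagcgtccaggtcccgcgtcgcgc
Gins3 promoter, chr8:95633309-95633608, plus strand: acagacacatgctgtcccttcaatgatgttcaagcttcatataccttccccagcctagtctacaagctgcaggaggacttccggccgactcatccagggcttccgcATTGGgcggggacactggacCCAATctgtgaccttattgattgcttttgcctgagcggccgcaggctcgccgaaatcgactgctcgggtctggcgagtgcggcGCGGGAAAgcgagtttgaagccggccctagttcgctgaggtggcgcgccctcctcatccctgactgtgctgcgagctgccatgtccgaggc
In *Kif11* the CCAAT match (as its complement) starts at −45 and the CHR match at −19 from the start site. In *Top2a* there are 10 matches, the last of them a CHR at −23. The E2F match of *Gins3* starts at −41. Of the other called mitosis genes named above, *Ttk* and *Mki67* hold both CCAAT and CHR matches. *Knl1* has a CHR match without CCAAT, and the windows of *Cenpk* hold CCAAT without a CHR match.

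DNA replication and nucleotide supply genes were also lower in si*Brca1*. All 50 had a negative difference, 39 passed by adjusted p and 5 were called, with a median of −0.73. Without si*Brca1* replicate 2 the median was −0.35 and 20 passed, 31 were called without si*Brca1* replicate 1, and 13 passed without si*Bard1* replicate 1. *Gins1* and *Gins3* encode subunits of GINS, which activates the replicative helicase. *Gins1* was at 13.2 and 9.75 CPM in si*Bard1* and at 6.33 and 2.67 CPM in si*Brca1*. *Gins3* was at 7.85 and 8.97 CPM and at 4.12 and 3.65 CPM, respectively, and its difference of −1.11 (SE 0.19, adjusted p = 0.0042) was among the few with close replicates in both groups. *Pole2*, a subunit of DNA polymerase epsilon, differed by −1.06 (SE 0.21, adjusted p = 0.00588). Relative to nt, the list's median was −0.48 in si*Bard1* and −1.19 in si*Brca1*. Clustered histone genes, whose mRNAs lack a poly(A) tail and are captured here because ribosomal RNA was depleted rather than poly(A) selected, had a negative difference in all 36 tested. Of these, 11 passed by adjusted p and 1 was called, with a median of −0.74. *Hist1h4d* was at 363 and 257 CPM in si*Bard1* and 290 and 152 CPM in si*Brca1*, so its groups overlapped and it did not pass (−0.54, adjusted p = 0.107). *Hist1h1c*, a linker histone, was at 356 and 260 CPM against 293 and 219 CPM and did not pass either (−0.27, adjusted p = 0.227). Near-identical histone genes share reads, and single members are uncertain. The histone median was −0.16 without si*Brca1* replicate 2 and −1.21 without replicate 1.

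Genes of homologous recombination and the Fanconi anemia pathway, in which BRCA1 itself acts, were lower in si*Brca1* in 20 of 43 by adjusted p, with 6 called and none higher (median −0.59). Without si*Brca1* replicate 2 the median was −0.31 with 9 passing, 18 were called without si*Brca1* replicate 1, and 13 passed without si*Bard1* replicate 1. Among BRCA1-BARD1 complex members and partners, 13 of 28 were lower and none higher (median −0.44). The 3 called were *Brca1*, the siRNA target itself, *Chek1* and *Brip1*. Without si*Brca1* replicate 2 none of the list was called, 5 passed and the median was −0.28. *Chek1*, the kinase that arrests the cycle when forks stall, was at 23.5 and 24.1 CPM in si*Bard1* and at 12.7 and 8.08 CPM in si*Brca1*. Its difference of −1.23 (SE 0.19, adjusted p = 0.00373) was close in size to that of *Brca1* itself (−1.20). *Brip1*, the helicase that binds the BRCT repeats of BRCA1, was at 12.2 and 16.8 CPM against 10.4 and 4.71 CPM. Its groups were separated by replicate 1 only narrowly, and the difference of −1.03 (SE 0.29, adjusted p = 0.0232) was lost without si*Brca1* replicate 2. The chromatin remodeller gene *Hells* was at 49.8 and 64.6 CPM and at 29.0 and 21.0 CPM (−1.20, SE 0.16, adjusted p = 0.00373). *Polq*, the polymerase of microhomology-mediated end joining, and *Fancb* of the Fanconi core complex differed by −1.13 and −1.14. *Tfrc*, the transferrin receptor by which dividing cells take up iron, belongs to none of these lists but was among the called genes with the highest level. It was at 370 and 306 CPM in nt, 250 and 295 CPM in si*Bard1* and 136 and 68.0 CPM in si*Brca1* (−1.5, SE 0.23, adjusted p = 0.00373).

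p53 targets and cell cycle inhibitors had a median difference of 0.11. Of 32, 6 were higher and 2 lower by adjusted p, and 1 was called in each direction. The stress cytokine gene *Gdf15* was at 17.6 and 12.7 CPM in si*Bard1* and 23.9 and 39.7 CPM in si*Brca1* (1.04, adjusted p = 0.00746). *Cdkn2c*, the CDK4/6 inhibitor p18, was at 11.8 and 11.5 CPM against 7.66 and 4.01 CPM (−1.08, adjusted p = 0.0109).

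**Figure D3:**
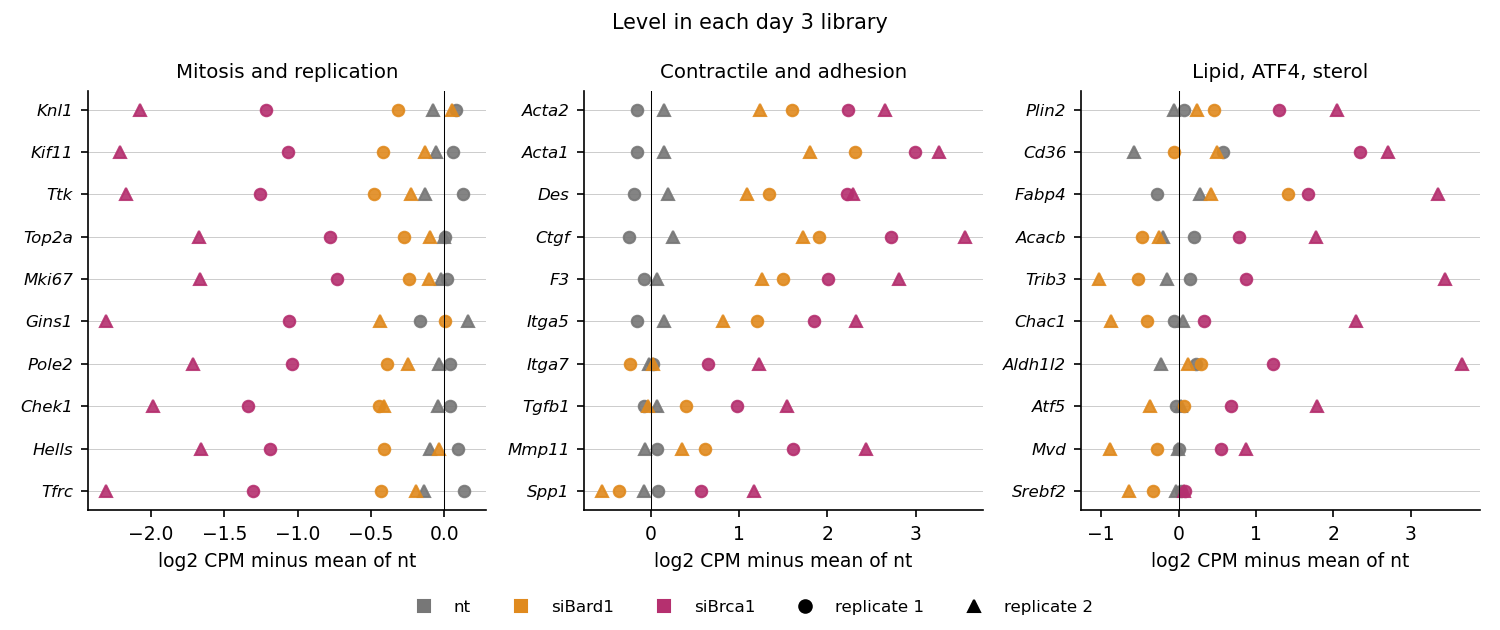
Level of 30 genes in each nt, si*Bard1* and si*Brca1* library of day 3 (horizontal axes, log2 CPM minus the mean of nt on the log2 scale), with circles for replicate 1 and triangles for replicate 2. In the left panel si*Brca1* replicate 2 lies furthest below nt, in the middle panel most si*Bard1* libraries lie between nt and si*Brca1*, and in the right panel *Trib3*, *Chac1*, *Mvd* and *Srebf2* have si*Bard1* libraries below nt.

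Contractile and actin cytoskeleton genes, which mark myofibroblast-like MEFs and are silenced in the MET, were higher in si*Brca1*. All 38 tested had a positive difference, 27 passed by adjusted p and 3 were called, with a median of 0.61. Relative to nt, the median of the list was 0.81 in si*Bard1* and 1.44 in si*Brca1*. *Acta2*, smooth muscle actin, was at 671 and 832 CPM in nt, at 2270 and 1767 CPM in si*Bard1* and at 3503 and 4689 CPM in si*Brca1*. The 3 groups did not overlap, and the direct difference was 1.02 (SE 0.17, adjusted p = 0.00423). *Acta1*, skeletal actin, was at 9.83 and 12.2 CPM, at 54.2 and 38.1 CPM, and at 87.2 and 105 CPM in the same order (1.08, SE 0.16, adjusted p = 0.00373). The intermediate filament gene *Des* was at 88.6 and 74.6 CPM in si*Bard1* and at 164 and 171 CPM in si*Brca1*, with replicates that were close in both groups (1.04, SE 0.13, adjusted p = 0.00326). *Myh3*, an embryonic muscle myosin outside the list, went the other way, at 3.50 and 2.16 CPM against 0.948 and 0.699 CPM (−1.76, SE 0.33, adjusted p = 0.00469). The summed level of smooth muscle and pericyte markers ranged from 2847 to 3615 CPM in si*Bard1* and from 5322 to 7027 CPM in si*Brca1*, and the part of cells of that type was not tested. In such bulk samples more cells of a type and more RNA per cell cannot be told apart. For skeletal muscle, *Myod1* and *Myog* had no row in the table.
The CArG box is the motif of serum response factor, which drives actin genes. It was searched as CCWWWWWWGG, where W is A or T, with no mismatch allowed. These letters occurred in 22.6% of 31 matched promoters of the contractile list and in 1.60% of all. The share was 4.08% among the genes called higher and 2.10% among those called lower. Among the called genes of the list, the windows of *Acta2* and *Des* hold no exact match, and sites with a mismatch were not searched. The *Acta1* promoter is shown with its match, which starts at −73, in capitals.
Acta1 promoter, chr8:123894726-123895025, minus strand: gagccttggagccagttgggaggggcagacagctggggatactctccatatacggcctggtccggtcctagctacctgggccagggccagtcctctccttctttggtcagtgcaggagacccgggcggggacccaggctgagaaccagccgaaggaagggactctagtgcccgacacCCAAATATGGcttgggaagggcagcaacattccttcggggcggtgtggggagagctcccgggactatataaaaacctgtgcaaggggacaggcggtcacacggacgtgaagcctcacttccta

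YAP and TAZ target genes, which respond to tension and cell spreading, were higher in si*Brca1* in 14 of 29 by adjusted p and lower in none, with 2 called (median 0.41). *Ctgf* was at 29.8 and 42.2 CPM in nt, 133 and 118 CPM in si*Bard1* and 234 and 417 CPM in si*Brca1*. Its groups did not overlap (1.32, SE 0.22, adjusted p = 0.0042), but 23.2% of its exon bases overlap a gene on the opposite strand, and the strand setting of the counting is not given in the sources used here. *F3*, tissue factor, was at 138 and 116 CPM against 196 and 343 CPM (1.03, SE 0.19, adjusted p = 0.00447).
Integrins were higher in 7 of 18, with 3 called and none lower (median 0.32). *Itga5*, the fibronectin receptor subunit, was at 306 and 233 CPM in si*Bard1* and at 478 and 666 CPM in si*Brca1* (1.08, SE 0.16, adjusted p = 0.00373). For *Itga7*, a laminin receptor subunit, nt and si*Bard1* had similar levels of 5.67 to 6.80 CPM and si*Brca1* had 10.5 and 15.7 CPM (1.05, adjusted p = 0.00488). *Itgb7* was called at a lower level, 1.40 and 2.32 CPM against 3.90 and 4.15 CPM (1.16, adjusted p = 0.0172).
Of the collagens, 11 of 27 were higher and 2 lower by adjusted p (median 0.37), and of the other matrix genes 25 of 50 were higher and 3 lower (median 0.39, or 0.14 with 17 higher after quantile normalization). *Col15a1* was called higher (3.22 and 3.72 CPM against 7.0 and 8.65 CPM, difference 1.17), and *Col17a1* was called lower on 12 and 16 reads in si*Bard1* and 4 and 3 in si*Brca1*. The call of *Col17a1* was lost in 5 of 18 alternatives, the fit without si*Brca1* replicate 2 among them. *Spp1*, osteopontin, was at 161 and 145 CPM in nt, at 119 and 105 CPM in si*Bard1* and at 227 and 343 CPM in si*Brca1* (1.32, SE 0.16, adjusted p = 0.00294). Its exons share 18.8% of their bases with another gene on its own strand. *Lum*, a collagen-binding proteoglycan, was at 16.8 and 7.83 CPM against 7.59 and 4.22 CPM (−1.02, adjusted p = 0.0459), and the cartilage gene *Comp* had 7 and 11 reads against 17 and 20 (1.14, adjusted p = 0.0399). The call was lost in 12 of 19 alternatives for *Lum* and in 11 of 18 for *Comp*, limma-voom included.
Metalloproteinases and their inhibitors were higher in 14 of 29, with 2 called and none lower (median 0.32). *Mmp11*, stromelysin 3, was at 18.2 and 15.2 CPM against 36.3 and 64.4 CPM (1.54, SE 0.21, adjusted p = 0.00373), and *Mmp10* was called on 3 and 9 reads in si*Bard1* and 26 and 15 in si*Brca1*. Among TGF-beta, BMP, FGF and Wnt ligands, 11 of 29 were higher and 3 lower (median 0.32). *Tgfb1* was at 15.3 and 11.4 CPM in si*Bard1* and 22.9 and 33.8 CPM in si*Brca1* (1.07, SE 0.19, adjusted p = 0.00447), whereas *Bmp2*, a ligand that favours the MET, was at 6.10 and 4.29 CPM against 2.72 and 1.89 CPM (−1.17, SE 0.28, adjusted p = 0.0117). *Wnt11* was called higher (2.03 and 1.02 CPM against 2.5 and 4.85 CPM, difference 1.27), a call lost without si*Brca1* replicate 2. All cultures contained the TGFb inhibitor.

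**Figure D4:**
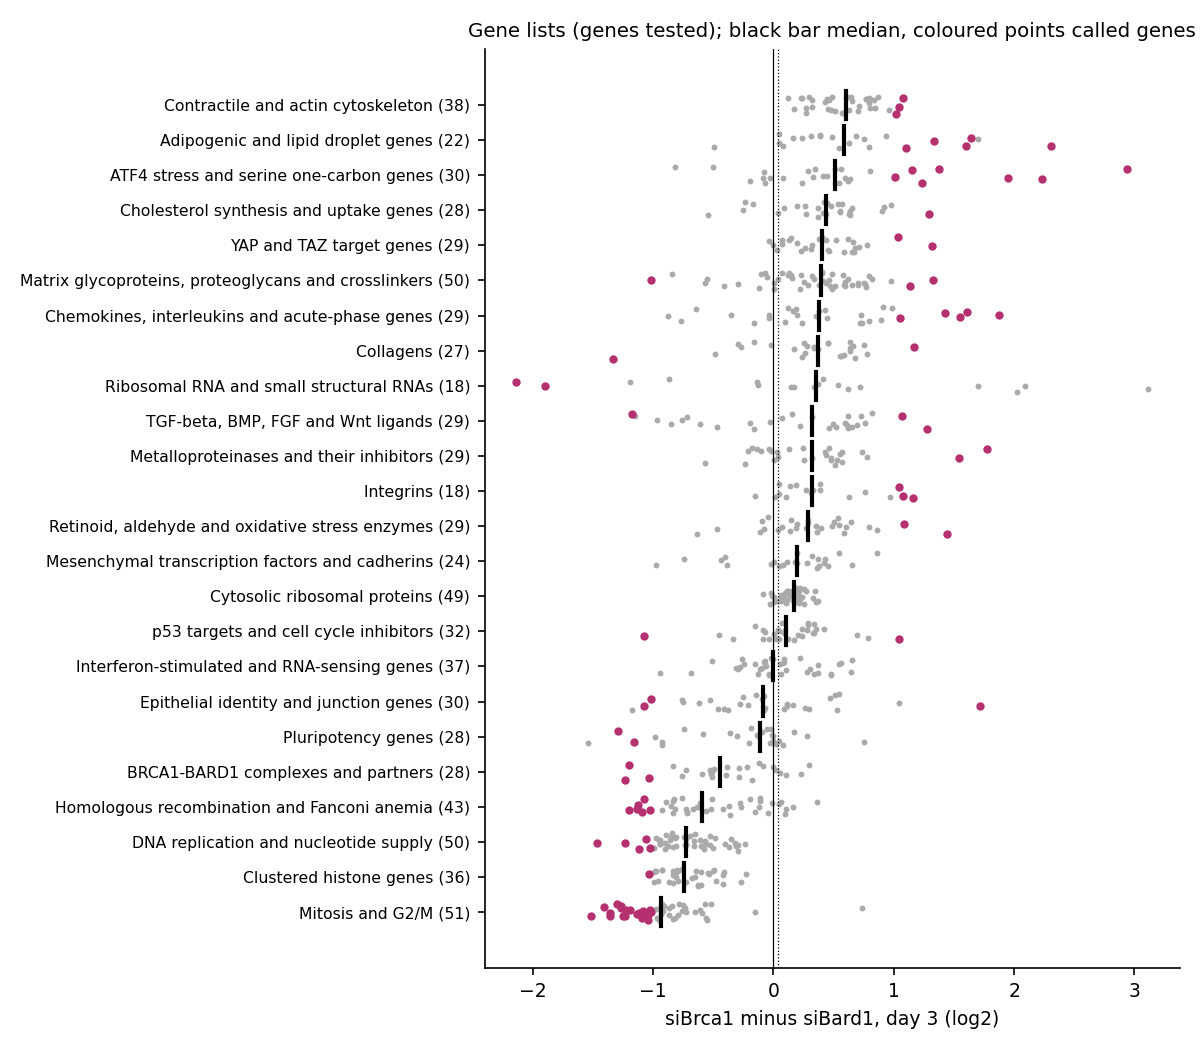
Difference between si*Brca1* and si*Bard1* at day 3 (horizontal axis, log2) for every tested gene of 24 lists (rows, with the number tested), with called genes in colour, a black bar at each median and a dotted line at the median of all genes. The medians run from −0.93 for mitosis to 0.61 for contractile genes.

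Adipogenic and lipid droplet genes were higher in si*Brca1* in 12 of 22 and lower in 1 by adjusted p, with 5 called (median 0.58). Against nt the medians were 0.03 in si*Bard1* and 0.77 in si*Brca1*. *Plin2*, which coats lipid droplets, was at 130 and 119 CPM in nt, 170 and 146 CPM in si*Bard1* and 305 and 517 CPM in si*Brca1* (1.33, SE 0.18, adjusted p = 0.00373). *Cd36* was at 0.767 and 1.12 CPM against 4.05 and 5.20 CPM, or 9 and 19 reads against 53 and 72 (2.30, SE 0.39, adjusted p = 0.0042). *Acacb*, the acetyl-CoA carboxylase that controls entry of fatty acids into mitochondria, was at 1.82 and 2.11 CPM against 4.34 and 8.65 CPM (1.64, SE 0.34, adjusted p = 0.00593). *Fabp4*, the fatty acid carrier of adipocytes, was at 5.53 and 2.79 CPM in si*Bard1* and at 6.63 and 21.4 CPM in si*Brca1*. Replicate 1 of si*Brca1* thus lay close to a si*Bard1* library, and the call (1.60, adjusted p = 0.02) was lost without replicate 2. Of the adipocyte markers, *Adipoq* had at most 3 reads in every day 3 library, and *Lep*, *Retn* and *Cidec* had no row.

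Genes of the ATF4 stress response and of serine and one-carbon metabolism included *Trib3* and *Aldh1l2*. Of 30 tested, 15 were higher and 2 lower by adjusted p, and 7 were called higher (median 0.51). ATF4 is the factor that cells translate under amino acid shortage or unfolded protein stress. Against nt the list's median was −0.46 in si*Bard1* and 0.10 in si*Brca1*. *Trib3*, a pseudokinase induced by ATF4 (chr2:152337422-152344032), was at 3.24 and 2.65 CPM in nt, 2.03 and 1.44 CPM in si*Bard1* and 5.37 and 31.9 CPM in si*Brca1*. *Chac1*, which degrades glutathione, was at 4.62 and 5.04 CPM in nt, at 3.64 and 2.63 CPM in si*Bard1* and at 6.04 and 23.7 CPM in si*Brca1*. In both genes si*Brca1* replicate 2 stood far above all other libraries. Their differences were 2.94 (SE 0.55, adjusted p = 0.0047) and 1.95 (SE 0.43, adjusted p = 0.00887).
*Aldh1l2*, a mitochondrial folate enzyme, was at 6.17 and 5.49 CPM in si*Bard1* and 11.7 and 63.4 CPM in si*Brca1* (2.23, SE 0.50, adjusted p = 0.00922), and 14.1% of its exon bases overlap a gene on the opposite strand. *Atf5*, a transcription factor of the same response, was at 46.5 and 34.4 CPM against 70.9 and 153 CPM (1.38, SE 0.25, adjusted p = 0.00447). The list was further from si*Bard1* in replicate 2 in 26 of its 30 genes. Without that library 2 of its genes were called higher and its median was 0.28. *Hrk*, a BH3-only gene of the apoptosis pathway outside the list, had 6 and 3 reads in si*Bard1* and 19 and 44 in si*Brca1*. It was at 1.52 and 1.96 CPM in nt, and it fell in si*Bard1* against nt (−2.10, adjusted p = 0.0088) while si*Brca1* did not pass (0.37, adjusted p = 0.53). The read ratio between the knockdowns was 8.45 with a 95% exact interval of 4.18 to 19.3, which covers counting error only.
The C/EBP-ATF response element, searched as TGATGNAA, occurred in 32.0% of 25 matched promoters of the list, in 2.63% of all, in 9.52% of the genes called higher and in 2.10% of those called lower. Of the other called genes of the list given here with a window, *Chac1* holds a match and *Atf5* holds none. The *Trib3* promoter holds 1 match, shown in capitals, at 15 bases after the start site.
Trib3 promoter, chr2:152344011-152344310, minus strand: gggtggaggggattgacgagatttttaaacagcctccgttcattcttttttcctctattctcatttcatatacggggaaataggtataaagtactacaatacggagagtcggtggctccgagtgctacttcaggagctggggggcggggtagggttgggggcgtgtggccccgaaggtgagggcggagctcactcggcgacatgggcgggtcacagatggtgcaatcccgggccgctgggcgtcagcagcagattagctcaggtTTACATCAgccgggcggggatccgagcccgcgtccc

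Of 28 cholesterol synthesis and uptake genes, 16 were higher in si*Brca1* and none lower by adjusted p (median 0.44), but only *Mvd* was called. Against nt the medians were −0.37 in si*Bard1* and 0.07 in si*Brca1*. *Mvd*, an enzyme of the mevalonate pathway, was at 13.4 and 13.3 CPM in nt, 11 and 7.20 CPM in si*Bard1* and 19.5 and 24.5 CPM in si*Brca1* (1.30, SE 0.19, adjusted p = 0.00373). *Srebf2*, the transcription factor of the pathway, was at 187 and 179 CPM in nt, 145 and 118 CPM in si*Bard1* and 193 and 191 CPM in si*Brca1*. Its si*Brca1* libraries were slightly above nt and its si*Bard1* libraries below (0.56, SE 0.11, adjusted p = 0.00564). *Abca1*, the cholesterol exporter, which falls when sterols are scarce, was at 151 and 170 CPM against 154 and 121 CPM and did not pass (−0.24, adjusted p = 0.2). The sterol response letters TCACNCCAC occurred in 5.26% of 19 matched promoters of the list and in 1.46% of all. They did not occur in the *Mvd* window.

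Chemokines, interleukins and acute-phase genes were higher in 12 of 29 and lower in 2, with 5 called higher (median 0.38). *C3*, the central complement component, was at 7.13 and 8.01 CPM in nt, 4.48 and 3.62 CPM in si*Bard1* and 13.3 and 16.4 CPM in si*Brca1*. The 3 groups did not overlap, and the difference of 1.88 (SE 0.18) had the smallest adjusted p of the named genes (0.00049). The acute-phase genes *Hp* and *Saa3* were at 1.68 and 1.28 CPM against 4.64 and 4.29 CPM, and at 1.19 and 1.59 CPM against 3.09 and 4.43 CPM. *Selp*, P-selectin, was at 1.68 and 1.23 CPM against 3.53 and 4.99 CPM (1.55, adjusted p = 0.00447). *Lyz2*, a macrophage lysozyme, had 3 and 14 reads in si*Bard1* and 73 and 27 in si*Brca1* (2.61, SE 0.57, adjusted p = 0.008). The summed level of macrophage and blood markers ranged from 15.4 to 16.1 CPM in si*Bard1*, from 23.8 to 28.8 CPM in si*Brca1* and from 14.7 to 15.8 CPM in nt. Of these 12 markers 8 had a row, 5 were tested and 1 (*Lyz2*) was called. *Ptprc* and *C1qa* had none, and *Adgre1* was at most at 0.516 CPM. The part of macrophages in these values was not tested. Interferon-stimulated and RNA-sensing genes showed no difference that passed in 37 genes by limma, with a median of −0.0032. *B2m* was at 176 and 155 CPM against 181 and 241 CPM (0.34, adjusted p = 0.0767), and *Ifitm3* at 284 and 268 CPM against 296 and 244 CPM (−0.03, adjusted p = 0.856).
Among retinoid, aldehyde and oxidative stress enzymes, 11 of 29 were higher and none lower, with *Hmox1* and *Aldh1a7* called. Heme oxygenase *Hmox1* was at 100 and 100 CPM in nt, 216 and 169 CPM in si*Bard1* and 305 and 538 CPM in si*Brca1* (1.09, SE 0.19, adjusted p = 0.00447).

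Pluripotency genes were lower in 5 and higher in 1 of 28, with 2 called (median −0.11), although the list lay below nt in both groups (−0.67 in si*Bard1* and −1.0 in si*Brca1*). Without si*Brca1* replicate 2 no median difference between the knockdowns remained in the list, and the same held without si*Bard1* replicate 1. The median was −0.32 without si*Brca1* replicate 1 and also without si*Bard1* replicate 2. *L1td1*, an RNA-binding protein of embryonic stem cells, was at 84.0 and 86.5 CPM in nt, 46.1 and 45.6 CPM in si*Bard1* and 28.2 and 12.4 CPM in si*Brca1* (−1.29, SE 0.25, adjusted p = 0.00514). *Nr5a2*, a nuclear receptor that can stand in for Oct4 in reprogramming, was at 3.29 and 2.11 CPM against 1.54 and 0.910 CPM (−1.16, SE 0.33, adjusted p = 0.0243). Its call was lost in 6 of 19 alternatives, the fit without si*Brca1* replicate 2 among them.
The 4 reprogramming factors were looked at after their values were seen. *Pou5f1* was at 137 and 92.5 CPM in si*Bard1* and at 130 and 96.6 CPM in si*Brca1*. The difference was −0.01 for *Pou5f1*, −0.06 for *Sox2*, 0.05 for *Klf4* and −0.13 for *Myc*, with adjusted p from 0.604 to 0.98. Both knockdowns lay below nt, where *Pou5f1* was at 219 and 246 CPM. Reads from the cassette and from the cells' own genes cannot be told apart in these values.
Epithelial genes were higher in 3 and lower in 3 of 30. *Cdh1*, E-cadherin, was at 41.5 and 29.4 CPM in nt, 26.5 and 24.9 CPM in si*Bard1* and 16 and 10.1 CPM in si*Brca1* (−1.02, SE 0.20, adjusted p = 0.00564). *Epcam* was at 7.29 and 5.28 CPM against 4.41 and 1.97 CPM (−1.07, SE 0.36, adjusted p = 0.0462), a call lost in 11 of 19 alternatives, limma-voom and both rescalings included. *Krt18*, a keratin of simple epithelia, went the other way, at 2.52 and 2.53 CPM against 11.9 and 5.76 CPM (1.72, SE 0.29, adjusted p = 0.0042), and its reads can be shared with pseudogenes. Mesenchymal transcription factors and cadherins were higher in 5 and lower in 1 of 24 by adjusted p, and none was called. *Prrx1*, a fibroblast homeobox gene, was at 370 and 371 CPM against 452 and 549 CPM (0.43, SE 0.11, adjusted p = 0.0169), and *Cdh11* at 243 and 235 CPM against 285 and 262 CPM (0.20, adjusted p = 0.173). *Prrx1* did not pass in 7 of 19 alternatives, quantile normalization and the fit without si*Brca1* replicate 2 among them. Of the cytosolic ribosomal protein genes, 2 of 49 were higher and the median was 0.17. *Rplp0* was at 1671 and 1401 CPM against 1798 and 1762 CPM (0.22, adjusted p = 0.253), and *Rpl4* differed by 0.16 (adjusted p = 0.41). The median of the list was −0.052 after quantile normalization, where *Rplp0* and *Rpl4* were at −0.13 and −0.11, so the direction depended on the scaling.

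Further genes stood among the largest positive differences. *Adssl1*, an enzyme of AMP synthesis in muscle, was at 2.52 and 1.80 CPM in si*Bard1* and 6.48 and 13.4 CPM in si*Brca1* (2.13, SE 0.32, adjusted p = 0.00373). The adhesion receptor gene *Adgrg1* was at 2.52 and 1.18 CPM against 4.49 and 10.3 CPM (1.98, adjusted p = 0.00611), and *Tmem151b* had 9 and 9 reads against 25 and 43 (1.88, adjusted p = 0.00576). The call of *Tmem151b* was lost without si*Brca1* replicate 2. Among the most highly expressed called genes, the lysosomal protease *Ctsl* was at 229 and 214 CPM against 345 and 586 CPM (1.02, adjusted p = 0.00447), with 26.8% of its exon bases under a gene on the opposite strand. The kinesin *Kif1a*, a motor best known from axons, was at 222 and 162 CPM against 325 and 533 CPM (1.13, SE 0.19, adjusted p = 0.0042).
The genes called lower with the largest differences were mostly weakly expressed. *C2cd4a* had 47 and 43 reads in si*Bard1* and 11 and 2 in si*Brca1* (−2.48, SE 0.48, adjusted p = 0.00524). *Slc14a1*, a urea transporter, was at 7.92 and 6.84 CPM against 2.79 and 1.12 CPM (−2.06, SE 0.33, adjusted p = 0.00401) and close to nt in si*Bard1*. *Slc28a3*, *AI593442* and *Atf7ip2* had at most 9 reads over both si*Brca1* libraries, and each lost its call without si*Brca1* replicate 2. The read ratio was 7.87 in favour of si*Bard1* for *Slc28a3* (95% exact interval 1.90 to 69.7) and 8.01 for *AI593442* (2.48 to 41.1). *Rny1*, a Y RNA bound by the Ro protein, was at 1.46 and 1.16 CPM in nt, at 4.27 and 8.09 CPM in si*Bard1* and at 1.98 and 1.26 CPM in si*Brca1*. The si*Bard1* libraries stood alone, above nt (2.18, adjusted p = 0.0032) and above si*Brca1* (direct difference −1.89, SE 0.39, adjusted p = 0.00645).
By annotation, 32 of 1090 non-coding genes were called lower (2.94%) and 2 higher (0.183%). Of 12601 protein-coding genes, 180 were called lower (1.43%) and 201 higher (1.60%). The lincRNA *Gm10522* was at 4.97 and 2.37 CPM in si*Bard1* and at 1.76 and 0.347 CPM in si*Brca1* (−2.14, adjusted p = 0.0152), a call that was lost without si*Brca1* replicate 2. The same held for the cytokine receptor gene *Il31ra*, at 3.29 and 4.76 CPM against 2.72 and 0.488 CPM (−1.78, adjusted p = 0.0331). *Gm37745* had 10 and 31 reads against 1 and 6.

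The same comparison was made at day 6. No gene was called (0%) and none passed by adjusted p in limma's test, with a smallest adjusted p of 0.0552 and 725 genes at an unadjusted p under 0.05. limma-voom on recovered reads also called none. A difference above 1 in size occurred in 87 genes at day 6 and in 503 at day 3, whatever their p. The 205 genes called higher at day 3 had a median difference of 0.08 at day 6, and the 217 called lower one of −0.015. Of these, 133 and 114 kept their sign. *Brca1* itself differed by −0.13 at day 6 and *Bard1* by −0.07. The median SE was 0.174 at day 6 and 0.152 at day 3, and for some genes it was larger at day 6, such as *Acta2* (0.35 against 0.17), *Acta1* (0.44 against 0.16) and *Ctgf* (0.51 against 0.22). The part of this spread in the absence of calls was not tested.
The change of the difference from day 3 to day 6 was tested itself. It was called for 104 genes (0.741%), 52 in each direction, and 55 of these were among the 422. The day 3 difference by which the 422 were chosen is part of the change, so this overlap was favoured in advance. The transferrin receptor *Tfrc* moved from −1.5 at day 3 to 0.07 at day 6 (change 1.57, adjusted p = 0.038), *Itga5* from 1.08 to −0.12 (change −1.20, adjusted p = 0.035) and *Cdh1* from −1.02 to 0.44 (change 1.46, adjusted p = 0.038). Of the lists, mitosis had the most such genes, 6 of 51, and its median difference at day 6 was −0.23. This count depended on single libraries of day 3 and day 6 and was 0 without si*Brca1* replicate 2 or si*Bard1* replicate 2 of day 3.

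**Figure D5:**
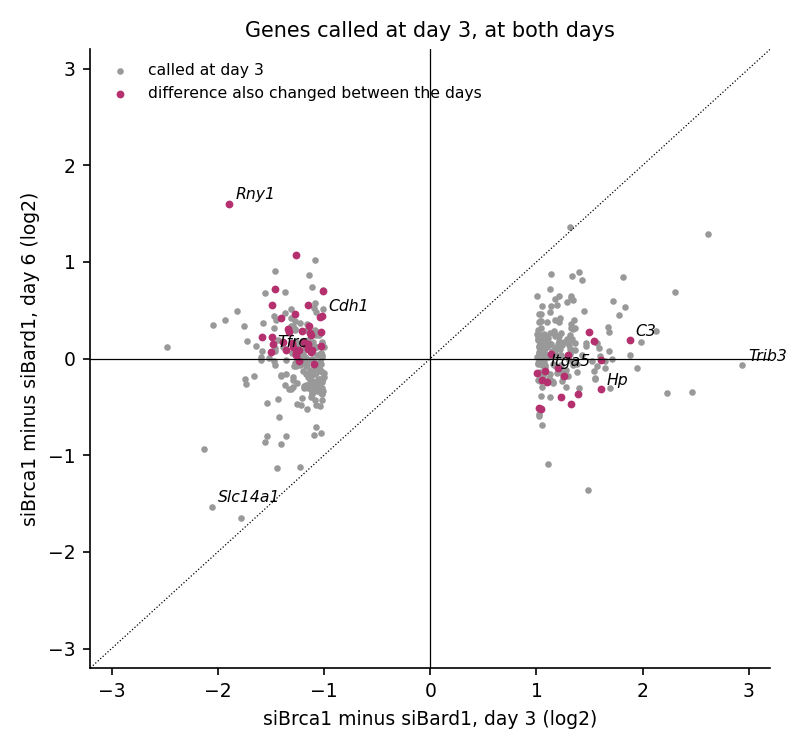
Difference between si*Brca1* and si*Bard1* at day 6 (vertical axis, log2) against the same difference at day 3 (horizontal axis, log2) for the 422 genes called at day 3, with the genes whose difference changed between the days (adjusted p below 0.05) in colour and a dotted line of equality. Most genes lie near 0 at day 6 on both sides, with medians of 0.08 and −0.015.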

How the data were processed

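RNA-seq of total, rRNA-depleted RNA was analysed from the 16 libraries of the series. The authors aligned paired-end reads to mm10 with STAR 2.5.2b and deposited 1 table of log2 CPM made with edgeR 3.20.9, in which a prior count is added before the logarithm. The read counter, annotation and strand setting are not given in the sources used here. CPM values printed are antilogs of the deposited log2 values and include that prior of 1.57 to 3.57 reads. Whole reads were recovered from the steps between the values: 100% came out whole within 0.01 reads, with 11169738 to 26832534 reads per library over both days.

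Differences were tested on the log2 scale with limma 3.58.1 in R 4.3.3, with a trend on mean expression, in the 8 day 3 libraries with 1 mean per group, and likewise at day 6. The change between the days was tested in all 16 libraries. P-values were adjusted by Benjamini-Hochberg over 14028 genes, after removal of 4962 with a mean log2 CPM below 0, and all tests were two-sided. Unless stated otherwise, differences are log2 values of si*Brca1* minus si*Bard1*, and adjusted p-values are limma's. Called genes had an adjusted p below 0.05 and an absolute difference above 1. The main test was fitted to the unit as deposited, and limma-voom on the recovered reads was an alternative. The scripts were tested on simulated data. With 2 libraries per group, p-values rest on the spread between libraries of a group. That spread was pooled over all groups in the fit, nt and si*Wdr5* included.

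The comparison, the 24 gene lists (876 symbols, 776 tested) and the rule for named genes were chosen with earlier results of these data known. Named genes were the siRNA targets, the 10 called genes with the largest difference in each direction whose libraries did not overlap, up to 4 called members of each list (or its 2 most expressed members where fewer than 2 were called), the 10 called genes with the highest mean, and genes called in opposite directions against nt or at both days, of which there were none. *Pttg1*, among others, was added after its values were seen. Some genes chosen by the rule are not reported here. Alternatives covered filters, scaling, added CPM, samples in the fit, moderation, limma-voom on recovered reads, the replicate number as a block and leaving out each library. Same-numbered libraries did not deviate together at day 3 (correlations from −0.093 to 0.072), so the main fit has no block. At day 6 the correlations ran from −0.070 to 0.260, and the fits that include day 6 have no block either.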

Additional observations from a re-analysis of the deposited data

Results flagged for a closer look

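The difference between si*Brca1* and si*Bard1* changed between day 3 and day 6, by a test of that change in limma, for 104 genes. Of the named genes given here, 14 passed that test by adjusted p (0.0294 to 0.0485). Most named genes were chosen by their day 3 difference, which is part of the change. Changes of the opposite sign were therefore favoured in advance. Positive changes, from a negative difference at day 3, were found for *Rny1* (3.50), *Cenpk* (1.82), *Tfrc* (1.57), *Hells* (1.49), *Cdh1* (1.46), *Fancb* (1.40) and *Chek1* (1.21). Negative changes, from a positive difference at day 3, were found for *Hp* (−1.92), *C3* (−1.69), *Itga7* (−1.56), *Mmp11* (−1.37), *Mvd* (−1.25), *Itga5* (−1.20) and *Srebf2* (−0.74). *Rny1* went from −1.89 at day 3 to 1.60 at day 6, whereas *Chek1* went from −1.23 to −0.02 and *C3* from 1.88 to 0.19. The cause of these changes was not tested.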

How the results depend on the processing

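Of the 422 genes called at day 3, the count was 254 when genes needed a mean of 2 or more on the log2 CPM scale, 52 without the trend, 184 with 1 CPM added, 279 in the 4 compared libraries alone and 3008 with no fold change threshold. It ranged from 0 (without si*Bard1* replicate 2) to 1111 (without si*Brca1* replicate 1) when a library was left out, and from 306 to 463 under the other alternatives. With the replicate number as a block, 453 genes were called at day 3, 2 at day 6 and 195 for the change between the days. The numbers name no shared batch, and the block turned no direction of a named gene or list. Under it, 30 rather than 11 of 36 histone genes passed by adjusted p, *Hist1h4d* among them. At day 6 the count was 1 with all 16 libraries in the fit, and 0 to 1 with a library left out. The 104 genes that changed between the days became 0 without the trend, 43 after quantile normalization and 196 with no fold change threshold. With a library left out they ranged from 0 to 713: 0 without si*Brca1* replicate 2 or si*Bard1* replicate 2 of day 3 or si*Brca1* replicate 2 of day 6, 10 without si*Bard1* replicate 1 of day 6, and 255, 472 and 713 without si*Bard1* replicate 1 of day 3, si*Brca1* replicate 1 of day 6 and si*Brca1* replicate 1 of day 3. The share of positive changes was 50% as reported, 66.0% with libraries centred on their median gene and 67.4% after quantile normalization. Directions turned for *Ifitm3* (−0.17 to 0.11 with a library left out, positive without si*Brca1* replicate 2 or si*Bard1* replicate 1), *Rpl4* (−0.11), *Rplp0* (−0.13) and the ribosomal protein median (−0.052), the last 3 after quantile normalization. Of 1629 values of named genes, 1364 kept their side of the threshold, 256 lost it and 5 gained it. None of the 79 named genes that passed did so in every alternative, since all failed without si*Bard1* replicate 2. After quantile normalization the medians were also lower for contractile genes (0.40 against 0.61), integrins (0.20 against 0.32) and metalloproteinases (0.20 against 0.32). Without si*Bard1* replicate 2 the median of the ligands was 0.11 and that of the collagens 0.23. The cause of these shifts was not tested.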
